A study of Homo sapiens with 2 samples.

Results

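The genes described here are 52 interferon-stimulated, STAT/IRF and MHC class I genes, taken by symbol from a list, out of 41582 gene symbols in the deposited table. They were measured by mRNA sequencing in the human glioblastoma line U87, an established cell line labelled as wild type and grown in RPMI with serum. One library came from cells kept with DMSO, the vehicle, and the other from cells treated with CCA-1.1, a curcumin analog, both for 72 h. Since each group is 1 library, the differences below could not be checked against replicates and carry no SD or p-value. The dose of CCA-1.1 is not given in the sources used here.

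Type I interferons bind a surface receptor whose kinases phosphorylate STAT factors. STAT2, a partner STAT and IRF9 then form the complex ISGF3, which binds the interferon-stimulated response element (ISRE) in the promoters of interferon-stimulated genes, while interferon gamma acts through STAT dimers at gamma-activated sites (GAS) and through IRF1. The products of these genes block viral entry, translation and replication, and others load peptides onto MHC class I molecules for display to CD8+ T cells and natural killer cells. Many tumour cells express part of this programme without added interferon.

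All 52 genes were found in the table, and all are annotated as protein-coding. The unit of the deposited values is TPM, in which reads are scaled for transcript length and every library has the same total. Levels can therefore be compared between genes, but the read depth is unknown. Transcripts were summed per gene, and positions are in GRCh38.p14. Each difference is the log2 of (CCA-1.1 TPM + 1) over (DMSO TPM + 1), so for genes at low TPM it comes out smaller than the ratio of the levels. A negative value means a lower level in the CCA-1.1 library. Averaged over both libraries, 47 of the 52 genes were at 1 TPM or more and 28 at 10 TPM or more. OAS3, MX1, IFI27, EPSTI1 and XAF1 were below 1 TPM, between 0.09 and 0.79 TPM in each library. Genes averaging at least 10 TPM are all named below, and those under it that are named were chosen after their values had been seen.

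Of 6 mesenchymal and glioma line markers, 5 were lower with CCA-1.1, and NES was at 7.53 and 7.62 TPM. VIM was at 3217 TPM with DMSO and 3106 TPM with CCA-1.1 (-0.05), and TNC was at 162.7 and 96.7 TPM (-0.74), a larger difference than in most of the listed genes. CD44 (-0.36), FN1 (-0.31) and CHI3L1 (-0.17) lay between them. Of 6 glial markers, GFAP, AQP4 and S100B were under 1 TPM or listed at 0, and OLIG2, SOX2 and FABP7 were between 1.45 and 7.03 TPM. The neuronal gene SNAP25 was at 22.03 and 16.80 TPM and SYT1 at 11.38 and 11.54 TPM. Among 8 immune cell markers, the highest value was 1.82 TPM (CD14), while TYROBP and CD3E were listed at 0 in both libraries, and the list summed to 3.57 TPM with DMSO and 3.56 TPM with CCA-1.1. Among 4 endothelial markers the highest value was 3.41 TPM. The mesenchymal list summed to 20182 TPM with DMSO and 17168 TPM with CCA-1.1, and the part of that shift in the results below was not tested.

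The genes were listed for their link to interferon, and the ISRE lies in promoters of such genes. The motif counts in this paragraph therefore describe the list and use no expression values. RefSeq promoters of GRCh38.p14, 250 bases before to 50 bases after the start of a gene, were found for 42 of the 52 genes and searched for 2 motifs on both strands. The ISRE was written as GAAA, then 2 bases of any kind, then GAAA. It occurred in a promoter of 29 of the 42 genes (69.0%), against 4.38% of the 27305 gene symbols in the promoter table and 3.57% of its 35116 promoters, all of the same length. The GAS motif, TTCNNNGAA, occurred in 12 of the 42 (28.6%), against 9.38% of symbols and 7.66% of promoters. A match is a description of the letters in this window, and a match of one motif can overlap a match of the other. Below are ISRE matches of genes with lower levels in the CCA-1.1 library, with 15 bases on either side, since most of the results concern these genes. Each is written 5′ to 3′ along its gene, the capitals mark matches of the ISRE or of its reverse complement, and match positions count from the gene start of that promoter, which is at 0. IFIT3, IFI44, RSAD2, PARP9 and TAP1 have 2 promoters in the table, of which the first is used here for TAP1 and the second for the others. A match cut by the end of a window keeps its capitals.
ISG15, chr1:1013369-1013414, plus strand, matches from -113 to -98: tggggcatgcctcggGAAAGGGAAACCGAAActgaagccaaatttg
IFIT1, chr10:89392492-89392544, plus strand, matches from -116 to -94: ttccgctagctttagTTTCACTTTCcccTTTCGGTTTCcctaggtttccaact
IFIT3, chr10:89332420-89332459, plus strand, matches from -94 to -85: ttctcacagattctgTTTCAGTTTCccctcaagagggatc
IFIT3, chr10:89332463-89332502, plus strand, matches from -51 to -42: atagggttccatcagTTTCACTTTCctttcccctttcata
BST2, chr19:17405730-17405775, minus strand, matches from -130 to -115: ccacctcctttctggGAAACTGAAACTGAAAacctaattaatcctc
SAMD9, chr7:93118091-93118130, minus strand, matches from -136 to -127: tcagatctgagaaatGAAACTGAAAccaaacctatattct
IFI44, chr1:78649756-78649795, plus strand, matches from -60 to -51: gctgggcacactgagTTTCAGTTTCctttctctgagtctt
RSAD2, chr2:6877617-6877656, plus strand, matches from -145 to -136: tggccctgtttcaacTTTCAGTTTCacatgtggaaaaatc
LGALS3BP, chr17:78979957-78979996, minus strand, matches from -58 to -49: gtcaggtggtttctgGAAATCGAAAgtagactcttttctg
B2M, chr15:44711358-44711403, plus strand, matches from -144 to -129: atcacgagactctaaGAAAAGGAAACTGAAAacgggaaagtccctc
TAP1, chr6:32853808-32853853, minus strand, matches from -134 to -119: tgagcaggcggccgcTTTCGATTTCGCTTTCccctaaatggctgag

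The next matches belong to some of the genes whose level differed little between the libraries or was higher in the CCA-1.1 library. IFIT5 and IFITM3 have further matches without a window of their own here. The PARP9 site is also the DTX3L site, read from the other strand, because these neighbouring genes start close together.
IFIT5, chr10:89414508-89414547, plus strand, matches from -45 to -36: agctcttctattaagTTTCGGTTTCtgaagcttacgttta
IFITM3, chr11:320888-320927, minus strand, matches from -52 to -43: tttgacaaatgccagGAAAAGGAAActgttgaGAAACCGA
PARP9, chr3:122564317-122564356, minus strand, matches from -41 to -32: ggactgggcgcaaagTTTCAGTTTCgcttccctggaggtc

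DDX60 had the largest difference among the genes with a promoter in the table, and the 250 bases before the start given in the promoter table, which lies within the annotated span of the gene, are shown, with both ISRE matches in capitals.
DDX60, chr4:168318753-168319002, minus strand: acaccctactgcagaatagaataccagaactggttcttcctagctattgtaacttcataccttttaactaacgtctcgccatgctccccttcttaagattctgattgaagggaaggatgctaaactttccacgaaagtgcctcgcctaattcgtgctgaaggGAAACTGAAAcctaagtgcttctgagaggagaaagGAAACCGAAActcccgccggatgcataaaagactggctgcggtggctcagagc

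Across the 25 genes at 1 TPM or more with an ISRE match, differences had a median of -0.23 and 20 were negative. Across the 12 genes without a match it was -0.13, and 7 were lower. The 10 genes without a promoter in the table, among them OASL and IFIT2, had a median of 0.0041, and 5 of them were lower. The ranges of the groups overlapped, from -0.91 to 0.18 with a match and from -0.45 to 0.70 without one. For GAS, the 9 genes with a match had a median of -0.37, a range of -0.91 to 0.70 and 6 lower, and the 28 without one had a median of -0.17, a range of -0.68 to 0.18 and 21 lower. The first range covers the second. Whether a match of either motif goes with a lower level was not tested.

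**Figure D1:**
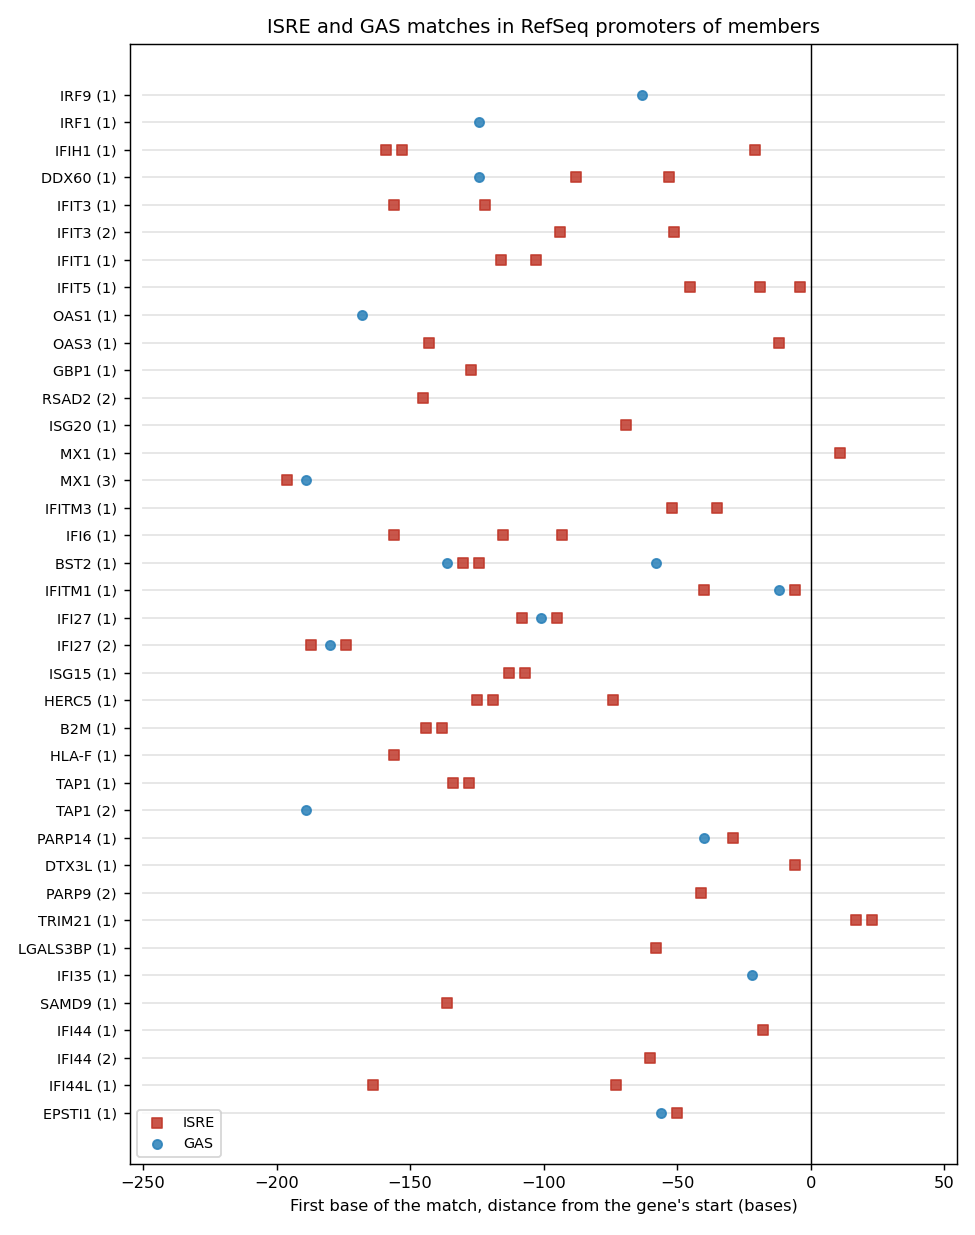
Position of each ISRE match (squares) and GAS match (circles) in the RefSeq promoters of the listed genes, as the distance in bases of the first base of the match from the gene start of that promoter, which is at 0. The number in brackets is the number of the promoter in the RefSeq table for that gene, and genes whose promoters hold no match are not drawn. Most squares lie to the left of 0, and those of TRIM21 and of the first promoter of MX1 lie to the right of it.

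Most of the interferon-stimulated and MHC class I genes were at a lower level in the CCA-1.1 library, by small amounts. In bulk RNA, fewer cells expressing a gene and less of its RNA per cell cannot be told apart, nor can the treatment and the library. Of the 47 genes averaging at least 1 TPM, 32 (68.1%) were lower and 15 were higher, while 43.8% of all 15485 such genes were lower. That share is also the reference for the counts of smaller groups below. The median difference was -0.14, against 0.03 over all genes. The list was chosen with earlier results of these data known, and many of its genes are neighbours. The contrasts with all genes therefore describe this list and are not independent support. A first limit of size was a difference of 0.32, which is a ratio of 5 to 4. Past it, 16 of the 47 genes (34.0%) were lower, where 6.88% of all genes and 4.53% of protein-coding genes were, and 1 (2.13%) was higher, where 11.5% of all genes and 6.84% of protein-coding genes were.

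At 1.5-fold, 4 genes (8.51%) were lower, OASL, DDX60, IFIT3 and IFIT2, beside 2.82% of all genes and 0.739% of protein-coding genes. OAS1 (2.13%) was the one gene more than 1.5-fold higher, beside 4.23% of all genes and 0.963% of protein-coding genes. None of the 47 differed by more than 2-fold on this scale, where 1.67% of all genes were lower and 1.89% were higher. The listed genes closest to the 1.5-fold limit, 0.585 in size, were IFIT2 just past it at -0.606 and RSAD2 just short of it at -0.576. The summed level of all 52 genes was 18576 TPM with DMSO and 16734 TPM with CCA-1.1, or 1.86% and 1.67% of all TPM, most of which was B2M and HLA-B.

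**Figure D2:**
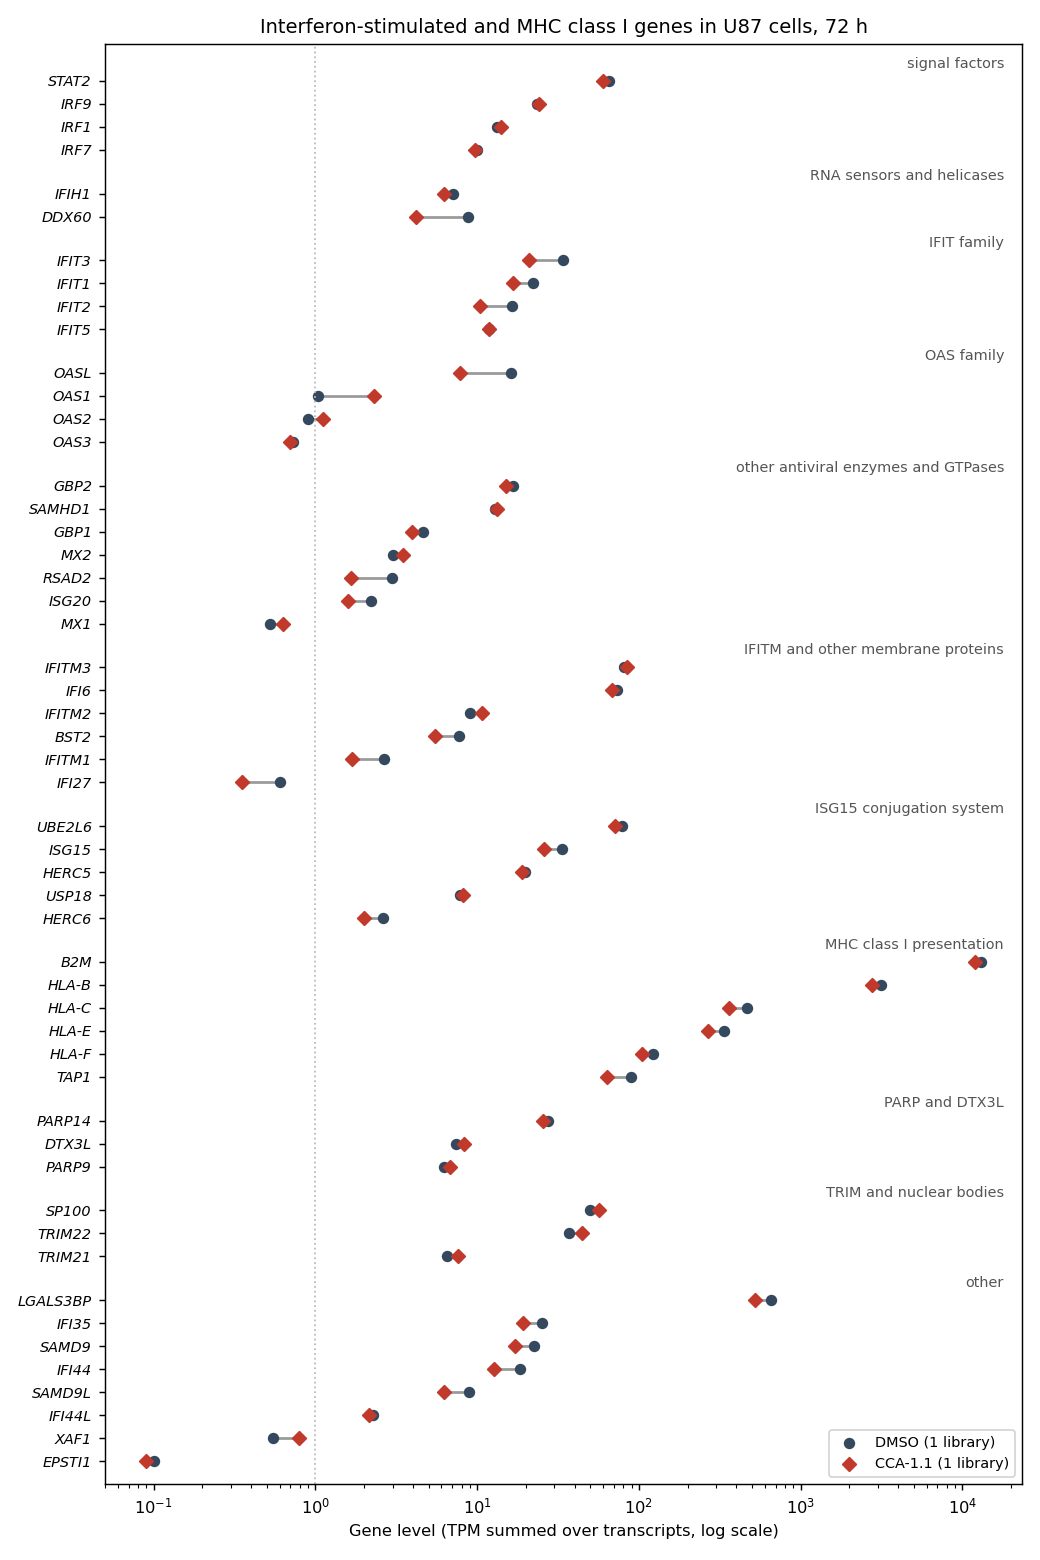
Level of each of the 52 genes in TPM (log scale) in the DMSO library (circles) and the CCA-1.1 library (diamonds), 1 library each, grouped by role, with a dotted line at 1 TPM. The diamonds lie to the left of the circles for all 6 MHC class I presentation genes and to the right for the 3 genes of the TRIM and nuclear body group.

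**Figure D3:**
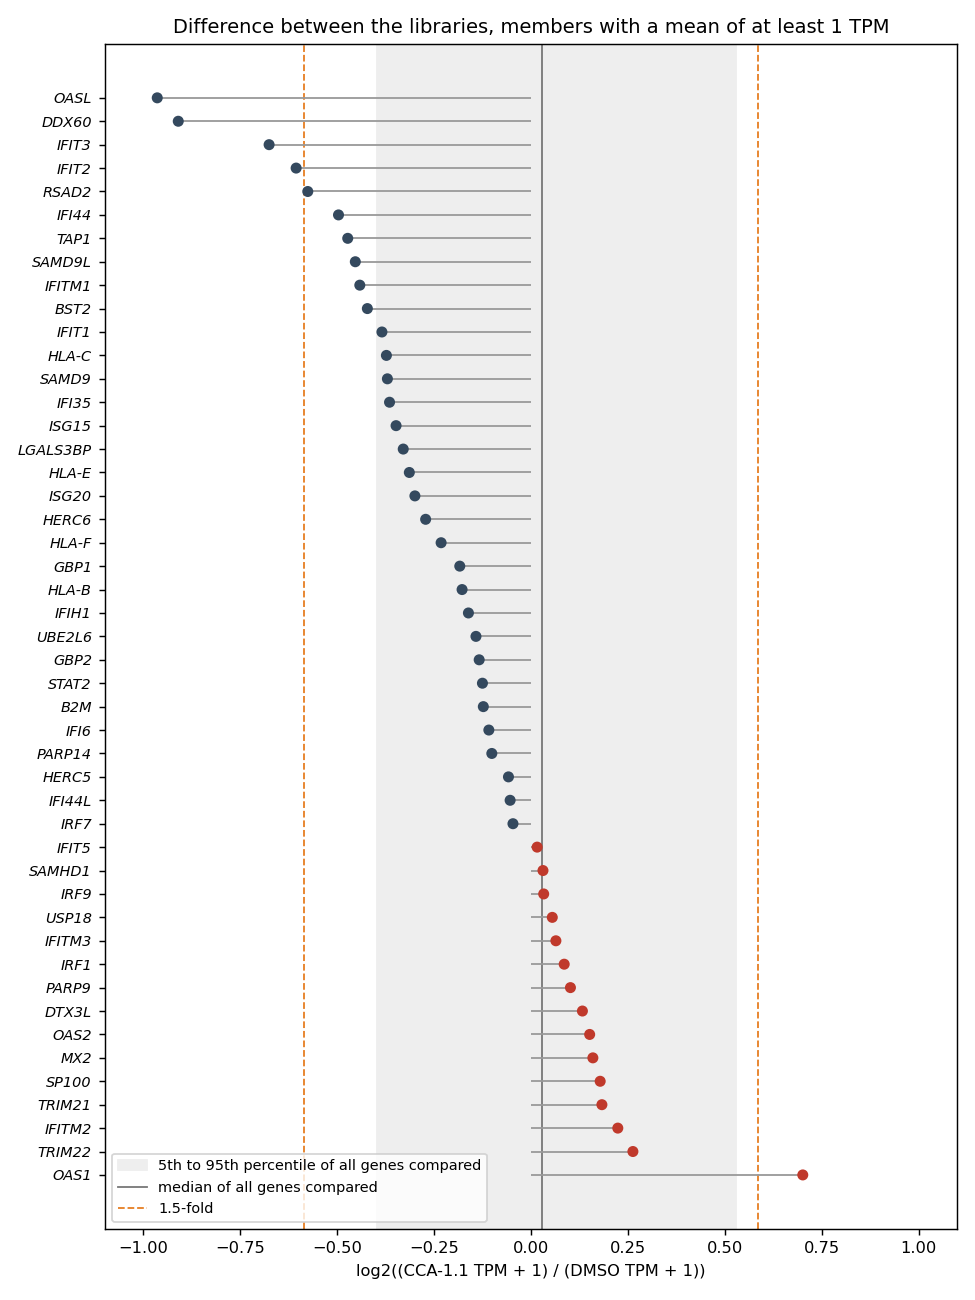
Difference between the libraries, log2((CCA-1.1 TPM + 1) / (DMSO TPM + 1)), for the 47 genes averaging at least 1 TPM, ordered by value. The grey band spans the 5th to the 95th percentile of all 15485 genes compared, the solid line is their median, and the dashed lines mark 1.5-fold. OASL, DDX60, IFIT3 and IFIT2 lie beyond the dashed line on the lower side and OAS1 beyond it on the higher side.

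The factors that switch the programme on had small differences, which for STAT2 and IRF7 depended on the transcripts summed. STAT2, the DNA-binding partner that carries the activation domain of ISGF3, was at 65.57 TPM with DMSO and 60.03 TPM with CCA-1.1, a difference of -0.13. IRF9, the subunit of ISGF3 that recognises the ISRE, was at 23.48 and 24.04 TPM (0.03). IRF1, a target and effector of interferon gamma signalling, was at 13.24 and 14.11 TPM (0.09), and IRF7, which drives production of interferon alpha, was at 10.01 and 9.66 TPM (-0.05). All 4 lay within the 5th to 95th percentile range of all genes, -0.40 to 0.53, and none passed 0.32. With curated transcripts only, STAT2 was at -0.28 and IRF7 turned to 0.21.

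The 21 interferon ligand genes examined were all under 1 TPM. Of these, 19 were listed at 0 in both libraries, IFNB1 and IFNG among them, and the highest value was 0.10 TPM, for IFNA13 with DMSO. The receptor and kinase genes were present. IFNAR1, a chain of the type I interferon receptor, was at 51.60 TPM with DMSO and 44.77 TPM with CCA-1.1 (-0.20), and JAK1, the kinase shared by the type I and type II receptors, was at 115.9 and 112.4 TPM (-0.04). Of 9 such genes averaging at least 1 TPM, 8 were lower and 1 was higher in the CCA-1.1 library, beside 43.8% lower over all genes. Their median was -0.06, and none was past 0.32.

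Viral RNA is detected in the cytosol by RIG-I-like helicases, of which IFIH1 (MDA5) recognises long double-stranded RNA. IFIH1 was at 7.12 TPM with DMSO and 6.26 TPM with CCA-1.1 (-0.16). DDX60, an interferon-induced helicase linked to this sensing, lies at chr4:168216294-168325979 and was at 8.79 TPM with DMSO and 4.21 TPM with CCA-1.1. Its difference was -0.91, or -52.1% in TPM, and 98.2% of all genes had a higher value. Nearly all of it came from 1 transcript, NM_017631.6, at 8.44 and 3.85 TPM. In a wider list of nucleic acid sensing genes, 3 of 8 were lower and 5 were higher, with a median of 0.01.

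The IFIT genes encode tetratricopeptide proteins that bind foreign RNA or restrain translation, and they lie side by side on chromosome 10 within 119 kb. IFIT3, a scaffold that stabilises IFIT1, was at 33.95 TPM with DMSO and 20.88 TPM with CCA-1.1, a difference of -0.68. IFIT2, which binds AU-rich double-stranded RNA, was at 16.32 and 10.38 TPM (-0.61). IFIT1, which binds viral RNA whose cap lacks methylation, was at 22.16 and 16.74 TPM (-0.38). These were all lower with CCA-1.1, whereas IFIT5, the last gene of the row, was at nearly the same level, 11.75 and 11.89 TPM (0.02). The summed level of the 4 genes was 84.18 TPM with DMSO and 59.89 TPM with CCA-1.1.

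The lower values held across the IFIT transcripts. All 4 IFIT1 transcripts and all 3 IFIT3 transcripts with at least 0.5 TPM in a library were lower in the CCA-1.1 library. The main IFIT3 transcript, NM_001549.6, was at 22.14 and 14.32 TPM, and the next, NM_001031683.4, was at 10.70 and 5.79 TPM. These transcripts share exons, so they are not independent measurements. Each IFIT gene overlaps the annotated span of LIPA, a lysosomal lipase gene at 91.11 TPM with DMSO and 83.21 TPM with CCA-1.1, and whether the quantification used strand is not given in the sources used here.

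The OAS enzymes make the oligoadenylate messenger that activates RNase L, and the genes of the family differed in direction. OASL, a relative without that activity that enhances RIG-I signalling, lies apart at chr12:121017761-121039246 and was at 16.13 TPM with DMSO and 7.78 TPM with CCA-1.1. Its difference of -0.96, or -51.8% in TPM, was the lowest of all 47 genes, and all 4 of its transcripts with at least 0.5 TPM were lower. The enzymatic members lie together on chromosome 12 within 105 kb and were all at low levels. OAS1 was at 1.03 TPM with DMSO and 2.30 TPM with CCA-1.1 (0.70), OAS2 at 0.90 and 1.11 TPM (0.15), and OAS3 at 0.73 and 0.70 TPM. OAS1 was thus higher and OASL lower, but the OAS1 values are close to 1 TPM and the reads behind them are unknown.

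The other antiviral enzymes and GTPases spanned a narrower range. GBP2, an interferon gamma-induced GTPase that acts on vacuoles of intracellular pathogens, was at 16.62 TPM with DMSO and 15.06 TPM with CCA-1.1 (-0.13). SAMHD1, a phosphohydrolase that depletes the deoxynucleotides retroviruses need, was at 12.91 and 13.21 TPM (0.03). RSAD2 (viperin), which makes a chain-terminating nucleotide, was at 2.98 and 1.67 TPM (-0.58). Of the 6 genes of this group above 1 TPM, 4 were lower and 2 were higher, and RSAD2 alone passed 0.32 with all transcripts summed. MX2, a GTPase that blocks nuclear import of viral genomes, was at 3.02 and 3.49 TPM (0.16, or 0.56 and so past 0.32 with curated transcripts only), and its neighbour MX1 was at 0.52 and 0.63 TPM. The exonuclease gene ISG20 was at 2.20 and 1.60 TPM (-0.30), and GBP1, a partner of GBP2, was at 4.60 and 3.93 TPM (-0.18).

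Among the membrane proteins, the IFITM genes, whose products block fusion of virus with endosomes, pointed in different ways. IFITM3 was the most abundant, at 80.83 TPM with DMSO and 84.55 TPM with CCA-1.1 (0.06), while IFITM1 was at 2.64 and 1.68 TPM (-0.44) and IFITM2 at 9.01 and 10.69 TPM (0.22). These genes are near copies of each other. Of distinct 31-base stretches in IFITM1 transcripts, 22.1% also occur in IFITM3 and 16.7% in IFITM2, so the split of reads among them is uncertain. IFI6, a mitochondrial and ER protein, was at 73.46 and 68.05 TPM (-0.11). BST2 (tetherin), which holds budding virions at the cell surface, was at 7.71 and 5.50 TPM (-0.42). IFI27, a mitochondrial protein often used as a marker of interferon exposure in blood, was at 0.60 and 0.35 TPM.

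ISG15 is a ubiquitin-like protein that is attached to other proteins by UBE2L6 and HERC5 and removed by USP18. ISG15 itself was at 33.28 TPM with DMSO and 25.93 TPM with CCA-1.1 (-0.35), or -22.1% in TPM. The conjugating enzyme UBE2L6 was at 78.66 and 71.19 TPM (-0.14), and the ligase HERC5 was at 19.73 and 18.91 TPM (-0.06). The value of HERC5 turned to 0.08 when only curated transcripts were summed. USP18, which also dampens the type I receptor, was at 7.78 and 8.12 TPM (0.05, or -0.03 with curated transcripts only). HERC6, a relative of HERC5 next to it on chromosome 4, was at 2.61 and 1.99 TPM (-0.27), or -23.8% in TPM. Of the 5 genes of the system 4 were lower, and ISG15 was past 0.32, as was HERC6 at -0.43 with curated transcripts only and at -0.37 with a pseudocount of 0.1 TPM.

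All 6 MHC class I presentation genes were lower in the CCA-1.1 library, with a median of -0.27, and TAP1 and HLA-C passed 0.32. Over all genes the share lower was 43.8%, and 6.88% were lower past 0.32, with 4.53% of protein-coding genes. B2M, the light chain that every class I molecule needs, was at 12977 TPM with DMSO and 11916 TPM with CCA-1.1 (-0.12). HLA-B, a classical heavy chain, was at 3129.8 and 2767 TPM (-0.18). HLA-C, a classical heavy chain that is also a ligand of killer cell receptors, was at 467 and 361 TPM (-0.37). HLA-C and HLA-B together span 88.4 kb on chromosome 6, at chr6:31268749-31272092 for HLA-C and chr6:31353875-31357179 for HLA-B.

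The non-classical heavy chains had differences between those of HLA-B and HLA-C. HLA-E, which presents leader peptides to the NKG2A receptor, was at 334 TPM with DMSO and 269 TPM with CCA-1.1 (-0.31), and HLA-F was at 122 and 104 TPM (-0.23). TAP1, a subunit of the pump that carries peptides into the ER, lies at chr6:32845209-32853704 and had the lowest value of the group, at 88.78 and 63.69 TPM (-0.47), or -28.3% in TPM. Both TAP1 transcripts were lower, NM_000593.6 at 83.27 and 62.08 TPM and NM_001292022.2 at 5.51 and 1.61 TPM. Both HLA-C transcripts and both B2M transcripts were lower too, while of 12 HLA-F transcripts 6 were lower and 6 were higher. Class I genes are highly polymorphic and resemble each other, with 10.2% of the 31-base stretches of HLA-C found in HLA-B, so reads of the alleles of this line may not all be assigned to the right gene. The summed level of the 6 genes was 17120 TPM with DMSO and 15479.5 TPM with CCA-1.1, or 1.71% and 1.55% of all TPM.

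**Figure D4:**
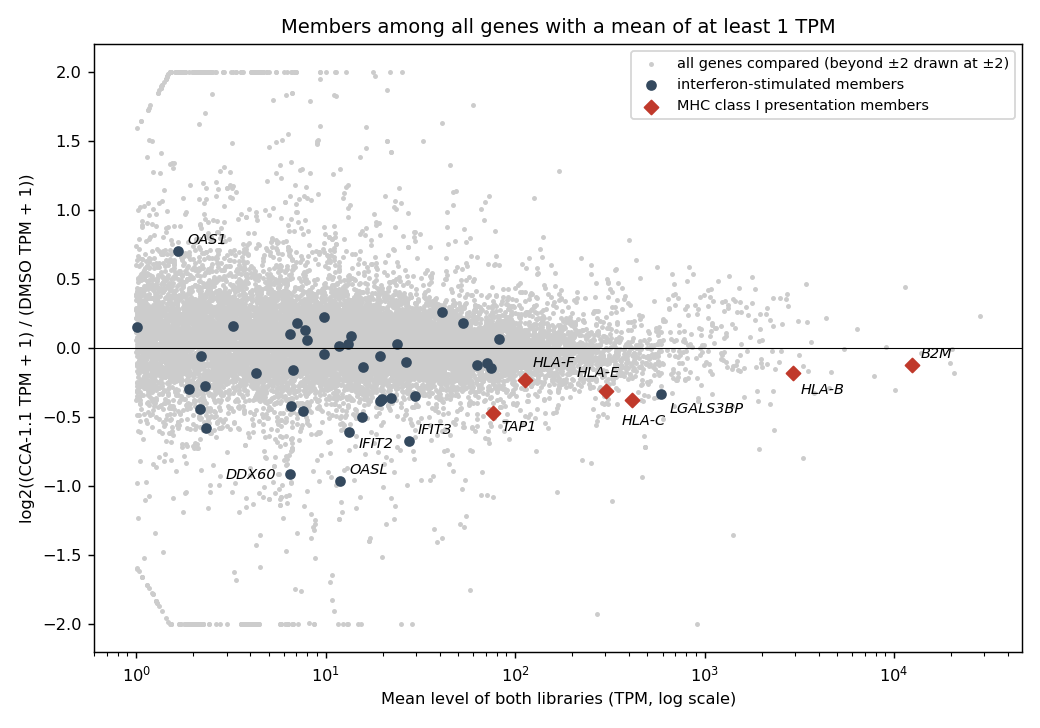
Difference between the libraries, log2((CCA-1.1 TPM + 1) / (DMSO TPM + 1)), against the mean level of both libraries in TPM (log scale), for all 15485 genes compared (grey, drawn at 2 or -2 where beyond), the interferon-stimulated genes (circles) and the 6 MHC class I presentation genes (diamonds). The MHC class I presentation genes are all at levels above 60 TPM in each library and all below 0, while OAS1 is near the low end of the level axis.

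The rest of the class I pathway was read from a separate list. Of 15 other antigen processing genes averaging at least 1 TPM, 14 were lower and 1 was higher in the CCA-1.1 library, with a median of -0.20, and 4 (26.7%) were past 0.32 on the lower side, beside 6.88% of all genes and 4.53% of protein-coding genes. TAPBP (tapasin), which bridges the class I molecule to the pump, was at 116.5 TPM with DMSO and 88.4 TPM with CCA-1.1 (-0.39), and TAP2, the partner of TAP1, was at 26.79 and 20.45 TPM (-0.37). The others past 0.32 were TAPBPL, a tapasin-like peptide editor at 13.56 and 10.35 TPM, and ERAP2, a peptide-trimming enzyme at 44.45 and 34.90 TPM. NLRC5, the activator of class I transcription, was the one higher gene, at 9.71 and 10.63 TPM (0.12). These 4 were chosen for their values, since none passed 1.5-fold.

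PARP9, DTX3L and PARP14 lie within 203 kb on chromosome 3 and act in ADP-ribosylation. PARP14 was at 27.50 TPM with DMSO and 25.57 TPM with CCA-1.1 (-0.10). PARP9 was at 6.26 and 6.79 TPM (0.10), and its partner ubiquitin ligase DTX3L was at 7.42 and 8.23 TPM (0.13). The PARP9 and DTX3L spans overlap on opposite strands, so reads from the overlap may belong to either gene.

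The genes of the TRIM and nuclear body group were the one group of the list with every member higher in the CCA-1.1 library. TRIM22, a ubiquitin ligase that restricts several viruses, was at 37.14 TPM with DMSO and 44.76 TPM with CCA-1.1 (0.26). SP100, a constituent of PML nuclear bodies, was at 49.91 and 56.61 TPM (0.18), and all 6 of its transcripts with at least 0.5 TPM were higher. TRIM21, a cytosolic antibody receptor, was at 6.55 and 7.57 TPM (0.18). None of the 3 passed 0.32, and their sum was 93.60 TPM with DMSO and 108.9 TPM with CCA-1.1.

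Among the remaining genes, all 6 averaging at least 1 TPM were lower, with a median of -0.37, and 5 of them were past 0.32. Of all genes, 43.8% were lower, and 6.88% were lower past 0.32, as were 4.53% of protein-coding genes. LGALS3BP, a secreted glycoprotein that binds galectins, was at 654 TPM with DMSO and 520.1 TPM with CCA-1.1 (-0.33). IFI44 was at 18.33 and 12.70 TPM (-0.50). IFI35, a regulator of innate signalling that pairs with NMI, was at 25.17 and 19.32 TPM (-0.37). The neighbours SAMD9 and SAMD9L, antiviral and growth-restraining proteins on chromosome 7, were at 22.40 and 17.10 TPM (-0.37) and at 8.94 and 6.26 TPM (-0.45). IFI44L, next to IFI44 on chromosome 1, was at 2.27 and 2.15 TPM (-0.05). Neighbours could thus share a direction, as SAMD9 and SAMD9L did, or differ in size, as IFI44 and IFI44L did, though IFI44L was at a low level. EPSTI1 was at 0.10 and 0.09 TPM, and XAF1, an antagonist of the apoptosis inhibitor XIAP, was at 0.55 and 0.79 TPM.

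Many of the listed genes are neighbours. With gaps of up to 500 kb allowed, 26 of the 52 genes fell into 10 clusters of neighbours. Sequence shared with other genes was uneven as well, with a median of 6.29% of the distinct 31-base stretches of a gene found in transcripts of another gene. It was under 5% for 25 genes, DDX60 (3.02%) and IFIT1 (3.49%) among them, and over 20% for 8 genes, IFITM1 (44.5%), IFITM3 (41.8%), IFITM2 (30.1%), HLA-B (47.6%) and HLA-F (25.6%) among them. HLA-B shared the largest part with DHFRP2 (29.0%), and 5.56% with HLA-C. Of the other genes past 1.5-fold, OAS1 shared 5.03%, OASL 7.77%, IFIT3 8.14% and IFIT2 10.9%.

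The differences were also set beside the level of the genes. The 28 genes averaging at least 10 TPM had a median of -0.16 with 21 lower, and 11 of them (39.3%) were lower by more than 0.32. Across all 8589 genes at that level, the median was 0.01, 48.0% were lower and the 5th percentile was -0.31. The 19 genes between 1 and 10 TPM had a median of -0.05 with 11 lower, and the share over all genes in that range was not computed. Of all 47 genes, 10 lay below the 5th percentile of all 15485 genes compared (-0.40). These were OASL, DDX60, IFIT3, IFIT2, RSAD2, IFI44, TAP1, SAMD9L, IFITM1 and BST2.

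For some genes the transcripts shifted more than the sum did. The highest transcript was another one in each library for IFI44L, MX2, OAS1, PARP9 and SAMD9L, of 34 genes with more than 1 transcript. SAMD9L gave the largest rearrangement among curated transcripts, with NM_001303498.3 at 2.13% of the gene with DMSO and 35.5% with CCA-1.1, and NM_152703.5 at 19.2% and 47.0%. For IRF7, the transcript NM_004031.4 held 23.6% of the gene with DMSO and 47.9% with CCA-1.1, while the sum of the gene was nearly equal. For MX2, the predicted transcript XM_011529573.3 held 51.0% and 8.88%, and for OAS1 the transcript NM_002534.4 held 34.0% and 57.0%. The shares of these genes rest on transcripts of at most 5.32 TPM whose shared reads are divided by estimation, and a share shift over 20 percentage points was seen for 4 genes with all transcripts and for 2 with curated transcripts only.

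Other genes of the pathway outside the list gave a mixed picture. Of 37 further interferon-stimulated genes averaging at least 1 TPM, 23 were lower and 14 were higher, with a median of -0.05. On the lower side 2 (5.41%) passed 1.5-fold, beside 2.82% of all genes and 0.739% of protein-coding genes. Past 0.32, the same 2 (5.41%) were lower, a smaller share than the 6.88% of all genes. That share was 4.53% for protein-coding genes and 34.0% for the 47 listed genes. On the higher side 1 (2.70%) passed 0.32, beside 11.5% of all genes and 6.84% of protein-coding genes. Of all genes, 43.8% were lower. ZC3HAV1 (ZAP), which binds CpG-rich viral RNA, was at 35.98 TPM with DMSO and 17.58 TPM with CCA-1.1 (-0.99), and APOL1, a secreted lytic factor of the apolipoprotein L family, was at 17.74 and 11.04 TPM (-0.64). The interferon-induced chemokine genes CXCL9, CXCL10 and CXCL11 were listed at 0 in both libraries. Of 6 negative regulators, 5 were lower and 1 was higher, with a median of -0.13, and SOCS1, the feedback inhibitor of JAK kinases, was at 6.35 and 3.73 TPM (-0.64). SOCS1, with a mean below 10 TPM, was named after its value had been seen.

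**Figure D5:**
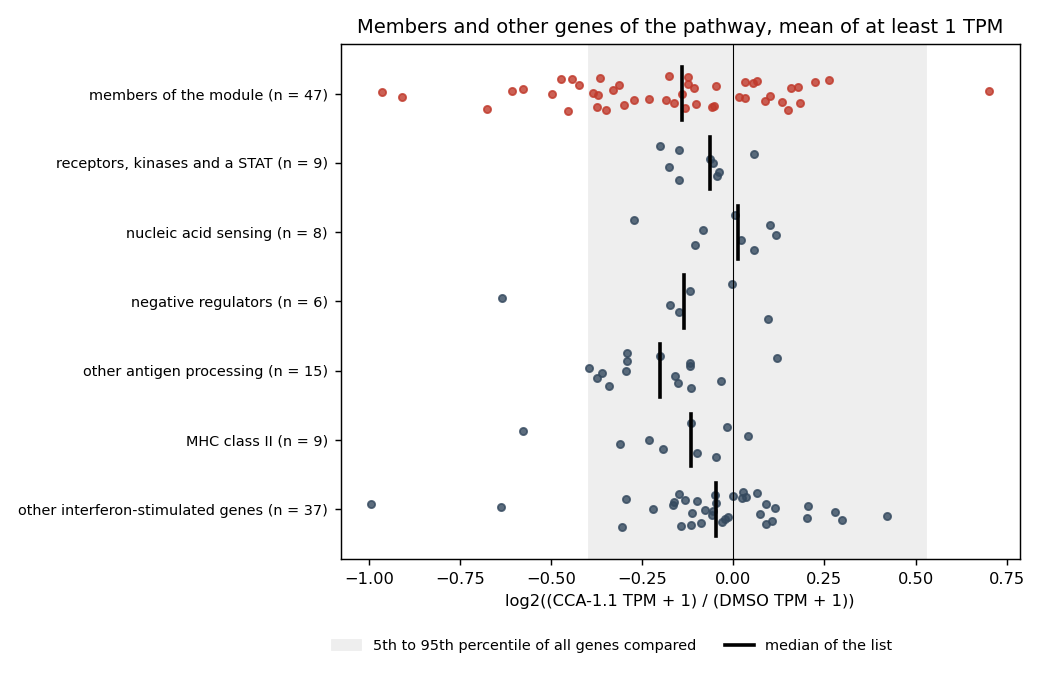
Difference between the libraries, log2((CCA-1.1 TPM + 1) / (DMSO TPM + 1)), for the 47 interferon-stimulated and MHC class I genes (first line) and for 6 lists of other genes of the pathway, each point a gene averaging at least 1 TPM and each bar the median of its list. The grey band spans the 5th to the 95th percentile of all genes compared. The median of other antigen processing genes is the lowest of the 7 medians, and that of nucleic acid sensing genes is the highest.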

How the data were processed

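The authors enriched mRNA from U87 cells, sequenced it on an Illumina instrument, assessed reads with FastQC 0.11.9 and MultiQC 1.1 (named in the submitters' processing notes) and quantified transcripts with Kallisto against GRCh38.p14. The deposited values are TPM, rounded to 0.01, with 1 column per library and column sums of 999999 and 1000000 after rounding. No column was left unused. Strand and bias settings are not given in the sources used here.

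Of 177816 transcripts, 169966 matched a symbol in the RefSeq table of GRCh38.p14 and were summed per gene. Genes averaging at least 1 TPM (15485 in all) were compared on log2(TPM + 1), with no test, and the calculation was checked on simulated data. The genes and lists were chosen with earlier results of these data known. By rule, genes of the list averaging at least 10 TPM were named, of the other lists those that also passed 1.5-fold, and transcripts whose rank changed or whose share moved by more than 20 percentage points. Other named genes were chosen after their values had been seen. Motifs came from the RefSeq promoter table. In place of protein identity, 31-base stretches shared between genes were counted in GENCODE v44 transcripts lifted to an earlier genome build. Both strands were used, and this set differs from the RefSeq transcripts of the deposited values. Alternatives were a pseudocount of 0.1 TPM, median-ratio scaling, other minimum levels and folds, curated transcripts only and a protein-coding background. Python 3.11.15, numpy 2.4.6, pandas 2.3.3 and matplotlib 3.10.9 were used.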

Additional observations from a re-analysis of the deposited data

How the results depend on the processing

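No paired analysis was possible because each group held 1 library, and for the same reason no library could be left out. At 1.5-fold, 4 genes were lower and 1 was higher, beside 2.82% and 4.23% of all genes. With the limit at 0.32 (a ratio of 5 to 4), 16 were lower, beside 6.88% of all genes. At 2-fold 0 were lower and 0 were higher, beside 1.67% and 1.89% of all genes. That result depended on the pseudocount, since with 0.1 TPM DDX60 (-1.04), OASL (-1.04) and OAS1 (1.09) passed 2-fold. With a minimum mean of 10 TPM and 1.5-fold, 3 were lower and 0 were higher, since DDX60 and OAS1 drop out. The shares of all genes were then 1.30% and 1.66%. At 1.5-fold, a pseudocount of 0.1 TPM added RSAD2 and IFITM1 (6 lower), and median-ratio scaling added RSAD2 (5 lower). The share of all genes that were lower rose too, to 3.86% with that pseudocount and 2.99% with scaling. The median difference stayed between -0.18 and -0.13 under the alternatives tried, median-ratio scaling included, against medians over all genes of 0.03 or lower. Single values moved by 0.1 or more for 5 of 47 genes with curated transcripts only (STAT2 -0.28, IRF7 0.21, MX2 0.56, HERC5 0.08, HERC6 -0.43), for 7 with the lower pseudocount, among them OAS1 (1.09) and RSAD2 (-0.80), and for 0 of 46 with scaling. The sign turned for HERC5, IRF7 and USP18 with curated transcripts and for IFIT5 with scaling. Past 0.32, the 16 lower and 1 higher became 18 and 2 with curated transcripts, 18 and 1 with the lower pseudocount and 17 and 1 with scaling. The shares of all genes past 0.32 under these alternatives were not computed. TPM carries no depth, so counting error cannot be given, and low genes such as OAS1 are the least certain.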

Other observations

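The MHC class II genes, which present extracellular peptides and are induced by interferon gamma through CIITA, were measurable in these cells. Of 9 averaging at least 1 TPM, 8 were lower and 1 was higher in the CCA-1.1 library, with a median of -0.12. Over all genes, 43.8% were lower. CD74, the invariant chain, was at 178.97 TPM with DMSO and 119.73 TPM with CCA-1.1, a difference of -0.58 that falls just short of 1.5-fold. HLA-DRB1 was at 64.66 and 56.39 TPM (-0.19) and HLA-DPA1 at 22.03 and 22.70 TPM (0.04). CIITA itself was at 1.70 and 1.30 TPM (-0.23, or -0.09 with curated transcripts only), close to the minimum of 1 TPM.

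The immunoproteasome subunits PSMB8 and PSMB9, which cut peptides for class I molecules, had nearly equal differences of -0.29 each, at 94.80 and 77.20 TPM and at 26.04 and 21.05 TPM. PSMB8 and PSMB9 are neighbours of TAP1 and TAP2 in the MHC region. The further subunit PSMB10, on chromosome 16, had a smaller difference of -0.12, at 63.54 and 58.41 TPM. These subunits were already counted among the other antigen processing genes above.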
